A study of Homo sapiens with 16 samples.

Results

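Messenger RNA levels of 8 genes were measured in human bladder cancer cell lines after siRNA against the forkhead transcription factor FOXA1. The 8 were found by gene name among 58721 gene rows and comprised PABPC1, PABPC4, PABPC1L, PABPN1, PAIP1, PAIP2, G3BP1 and G3BP2. The set was selected on its readout, chosen by the fact that PABPC4 was lower and G3BP2 higher under FOXA1 siRNA in these same libraries. For all 8 genes, values of FOXA1 siRNA against control siRNA are therefore given as a description, without a test. Tests were kept for contrasts that did not enter the choice, namely siRNAs of the same target, the lines under control siRNA, and the difference of each siRNA effect between the lines.

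Poly(A)-binding proteins coat the tail of messenger RNA. In the cytoplasm they contact the initiation scaffold eIF4G, which brings the ends of the message together and favours translation, and they slow the removal of the tail. In the nucleus a separate family member controls the length of the tail as it is made. G3BP proteins bind RNA in the cytoplasm and, when translation initiation stalls, condense with it into stress granules, in which cytoplasmic poly(A)-binding protein is a standard marker.

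The 16 libraries came from cells given siFOXA1.1 or siFOXA1.2, which target FOXA1, or siControl.1 or siControl.2, which do not, with 2 libraries per siRNA in each of the 2 lines. RT112, a luminal bladder cancer line, was grown in RPMI and SCaBER, a basal/squamous line, in DMEM, both with 10% FBS, so line and medium cannot be told apart. All groups were transfected with Lipofectamine RNAiMAX, at 10 nM siRNA per the labels and 10 ng per the methods of the study. No untransfected cells are among the groups. Libraries read the 3' ends of polyadenylated transcripts. The 2 libraries of a siRNA carry batch numbers, and nothing in the sources states whether they were separate cultures, so p-values measure the spread between these libraries.

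FOXA1 itself was checked first. In RT112 its level was 27.8 ± 6.98 CPM (counts scaled to the library total; SD, n = 4) under control siRNAs and 7.43 ± 6.61 CPM under FOXA1 siRNAs. A two-sided exact permutation test gave p = 0.0286, the smallest p that the 70 splits allow. The test treats all libraries of the line as exchangeable, whichever siRNA they had, and so takes libraries that share a siRNA as independent. In edgeR the log2 difference to control was -3.44 (SE 0.47, adjusted p = 2.19e-05) for siFOXA1.1, -1.1 (SE 0.39, adjusted p = 0.205) for siFOXA1.2 and -1.86 (SE 0.57, adjusted p = 0.278) for both pooled. The siRNAs differed in depth of depletion. FOXA1 was at 1.32 and 3.24 CPM under siFOXA1.1 and at 9.18 and 16.0 CPM under siFOXA1.2, and the difference between these siRNAs was -2.34 in log2 units (SE 0.50, edgeR adjusted p = 0.00181). In SCaBER the gene had 3 to 15 counts under control and 0 to 6 under FOXA1 siRNAs (exact permutation p = 0.114), and it fell below the filter on low counts. Depletion in SCaBER was therefore hardly measurable at this depth.

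Library totals were 6622473 to 7604581 counts in RT112 and 4528513 to 6914951 in SCaBER. The share of mitochondrially encoded counts was 25.7% to 28.2% under siFOXA1.1 in RT112, against 18% to 21.2% under control siRNAs and 19.7% to 20.4% under siFOXA1.2. In SCaBER it was 10.3% to 12.1% in all libraries. Of the epithelial markers EPCAM, KRT8, KRT18 and CDH1, 4 of 4 were well above the floor of 3 counts in both lines. The summed level of 6 luminal markers was 782 to 1064 CPM in RT112 and 38.6 to 57 CPM in SCaBER under control siRNAs, with KRT20 at 0 counts in RT112 controls. The 5 basal or squamous markers summed to 100.3 to 178 and 1404 to 2769 CPM. Of 7 markers of blood, endothelial and fibroblast cells, CD3E, PTPRC and DCN were at 0 counts in every library. The 7 together summed to 10.4 to 17.7 CPM in RT112 controls and 5.03 to 15.1 CPM in SCaBER controls, with COL1A1 the highest. COL1A1 stood at 53.9 and 56.5 CPM under siFOXA1.1 in RT112, where the luminal sum also reached its lowest value, 385 CPM. The part of these shifts in the results on the 8 genes was not tested. In bulk RNA a smaller number of cells of one kind and less RNA per cell cannot be told apart.

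Promoter windows of 6 of the 8 genes, all but PABPC1 and PABPC4, were read for the forkhead motifs TGTTTAC and TGTTTGC, since the factor depleted here binds sites of this kind. Windows ran from 250 bases before to 50 bases after an annotated start (RefSeq, GRCh38.p14), and both strands were searched. One of the 13 windows held a match, a TGTTTAC on the opposite strand of a PAIP1 window at position 46 counted from the 5' end of the window. Over all 35116 windows of this length, 3.42% held TGTTTAC, 3.89% TGTTTGC and 7.17% at least one of them. GC content of the 13 windows was 55.0% to 78.0%, against a median of 58.7% over all windows. The windows at the outermost annotated starts of PAIP1, on the minus strand at chr5:43557362-43557661, and of G3BP2, on the minus strand at chr4:75724388-75724687, are given here 5' to 3', the first for its match, in capitals, and the second because G3BP2 is the gene of the set that was higher under FOXA1 siRNA. A match is a string of letters and not a bound site, and its absence from a window says nothing of the factor.
PAIP1: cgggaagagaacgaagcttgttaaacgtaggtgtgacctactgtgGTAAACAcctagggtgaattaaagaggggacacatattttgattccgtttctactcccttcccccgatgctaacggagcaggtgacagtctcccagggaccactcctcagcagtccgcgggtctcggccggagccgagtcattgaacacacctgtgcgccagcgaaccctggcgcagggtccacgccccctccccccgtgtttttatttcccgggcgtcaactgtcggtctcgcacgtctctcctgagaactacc
G3BP2: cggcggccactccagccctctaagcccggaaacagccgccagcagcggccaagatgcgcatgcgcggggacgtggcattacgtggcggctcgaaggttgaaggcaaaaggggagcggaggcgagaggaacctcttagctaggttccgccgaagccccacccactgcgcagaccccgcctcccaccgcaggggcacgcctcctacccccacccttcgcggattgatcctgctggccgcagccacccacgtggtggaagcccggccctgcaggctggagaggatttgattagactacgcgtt

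Under control siRNAs the 8 genes spanned a wide range of levels. TPM, which divides by gene length, was used to compare genes. With 3' end reads a longer transcript does not yield more reads, so the order may differ from that of molecules. PABPC1, the main cytoplasmic poly(A)-binding protein, was highest in both lines, at 973 ± 58.7 TPM in RT112 and 1281 ± 83.1 TPM in SCaBER (SD, n = 4). PABPC4, a second cytoplasmic family member, followed at 169 ± 13.3 TPM in RT112 and 132 ± 10.5 TPM in SCaBER. PAIP2, a small protein that displaces poly(A)-binding protein from the tail, stood at 80.1 ± 15.2 TPM in RT112 and 128 ± 27.2 TPM in SCaBER. Its SCaBER libraries overlapped those of PABPC4 in TPM, whereas in RT112 both genes were apart. In CPM both were apart in SCaBER as well, PAIP2 at 130 to 193 and PABPC4 at 319 to 384 CPM. PAIP1, a partner that stimulates translation, came next at 28.7 ± 6.40 TPM in RT112 and 67.4 ± 4.66 TPM in SCaBER.

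The scaffolds G3BP1 and G3BP2 were at 16.6 ± 1.62 and 13.4 ± 4.99 TPM in RT112 and at 27.7 ± 2.77 and 28.0 ± 1.52 TPM in SCaBER. In each line the libraries of one scaffold overlapped those of the other in TPM. In CPM, which does not divide by length, G3BP1 lay above G3BP2 without overlap. The values were 87.4 to 118 against 32.6 to 64.1 CPM in RT112 and 121 to 145 against 73.3 to 85.2 CPM in SCaBER. PABPC1L, a family member best known from oocytes, was at 13.5 ± 3.85 TPM in RT112 and 6.02 ± 2.35 TPM in SCaBER. The nuclear protein PABPN1 was lowest, at 7.38 ± 1.88 and 5.94 ± 1.60 TPM, and in neither line could its libraries be told apart in TPM from those of the gene just above it. In RT112 that gene was G3BP2, and in CPM the 2 were apart, at 9.97 to 19.2 for PABPN1 and 32.6 to 64.1 for G3BP2.

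**Figure D1:**
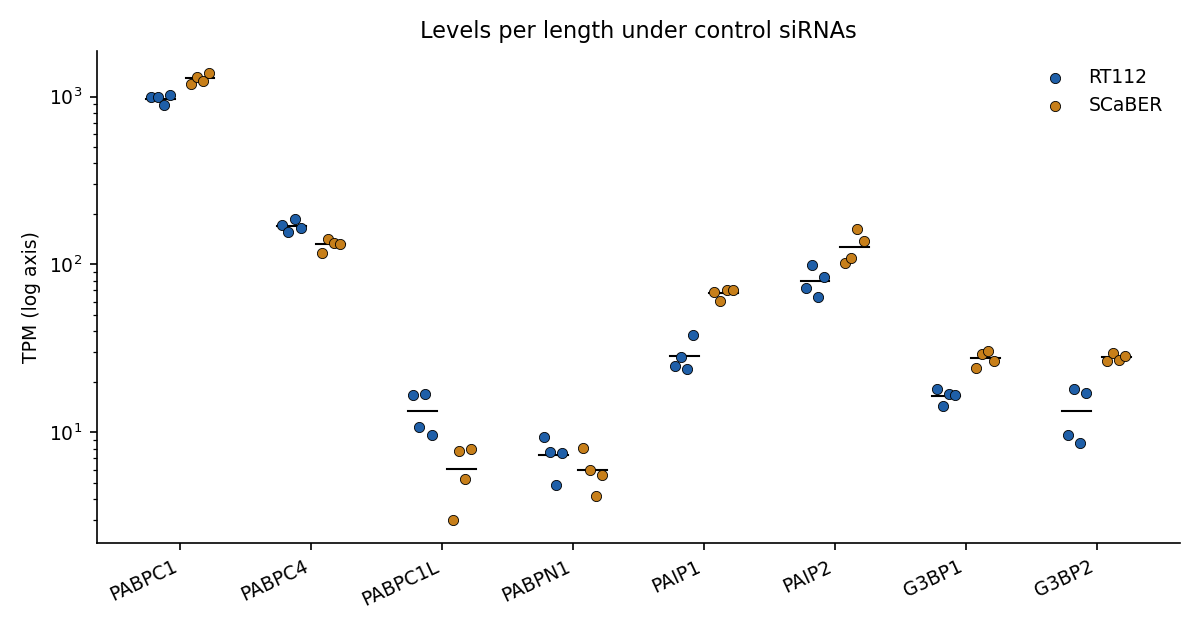
TPM of the 8 genes (log axis) in the 4 control siRNA libraries of each line, with points for libraries and bars for means. PABPC1 lies highest in both lines, at 973 TPM in RT112 and 1281 TPM in SCaBER, and PABPN1 lowest.

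Between the lines under control siRNAs, 4 of the 8 genes differed (edgeR, adjusted p below the threshold of 0.05), where 43.4% of all 12309 genes tested did. Of these, PABPC4 was higher in RT112, with a log2 difference of 0.77 (SE 0.13, adjusted p = 0.000162) and every RT112 control library above every SCaBER one. PABPC1L was higher in RT112 by 1.59 (SE 0.34, adjusted p = 0.00143). PAIP1 was lower in RT112, at -0.84 (SE 0.17, adjusted p = 0.000797). G3BP2 was also lower in RT112, at -0.68 (SE 0.21, adjusted p = 0.0175), but this call rested on the siControl.1 libraries of RT112. Without replicate 1 of that siRNA the difference was -0.57 (adjusted p = 0.0597), and without replicate 2 it was -0.54 (adjusted p = 0.0556).

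PABPC1 had the same CPM level in both lines, with a log2 difference of 0.00 (SE 0.10, adjusted p = 0.998). On the TPM scale with limma, where the median of all genes moved by -0.34, PABPC1 was instead lower in RT112, at -0.40 (adjusted p = 0.00569), and 7 of the 8 genes were called. The other members gave log2 differences of 0.70 (SE 0.35) for PABPN1, -0.28 (SE 0.16) for PAIP2 and -0.34 (SE 0.15) for G3BP1, with adjusted p = 0.118, 0.178 and 0.0810 in edgeR.

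PABPC4, which lies at chr1:39560816-39576790 in GRCh38.p14, was lower in every FOXA1 siRNA library than in every control library of its line. In RT112 it was at 608 and 669 CPM under siControl.1 and at 518 and 558 CPM under siControl.2. Under siFOXA1.1 it was at 122 and 147 CPM, and under siFOXA1.2 at 254 and 299 CPM. The RT112 libraries thus formed 3 levels without overlap, controls highest, siFOXA1.2 between and siFOXA1.1 lowest. Relative to the control mean in CPM, 22.9% of the PABPC4 level was left under siFOXA1.1 and 47% under siFOXA1.2. In edgeR, which scales the libraries differently from CPM, the log2 differences were -1.99 (SE 0.13) and -1.07 (SE 0.12).

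In SCaBER the control libraries had 319 and 344 CPM of PABPC4 under siControl.1 and 384 and 350.4 CPM under siControl.2. The siFOXA1.1 libraries had 124 and 101 CPM and the siFOXA1.2 libraries 146 and 161 CPM. The order of the siRNAs was the one seen in RT112, with a smaller gap between siFOXA1.1 and siFOXA1.2. Of the control mean in CPM, 32.1% was left under siFOXA1.1 and 43.9% under siFOXA1.2. The log2 differences in edgeR were -1.60 (SE 0.19) and -1.17 (SE 0.18). With both FOXA1 siRNAs pooled, the value was -1.46 (SE 0.25) in RT112 and -1.37 (SE 0.19) in SCaBER.

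PABPC1 did not share this pattern. In RT112 it was at 2471 and 2224 CPM under siControl.1, 2316 and 2429 CPM under siControl.2, 1256 and 1503 CPM under siFOXA1.1, and 2884 and 2815 CPM under siFOXA1.2. The siFOXA1.1 libraries lay below all controls and the siFOXA1.2 libraries above all controls, at 58.4% and 121% of the control mean. With mitochondrial counts taken out of the total, a choice made after their share was seen, these values were 64.4% and 121%. In SCaBER the gene was at 2272, 2219, 2484 and 2549 CPM under control, 2183 and 2206 CPM under siFOXA1.1, and 2439.5 and 2383 CPM under siFOXA1.2. There the siFOXA1.1 libraries lay just under the controls in CPM, though not in TPM, and the siFOXA1.2 libraries among them. These were at 92.2% and 101% of the control mean in CPM.

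**Figure D2:**
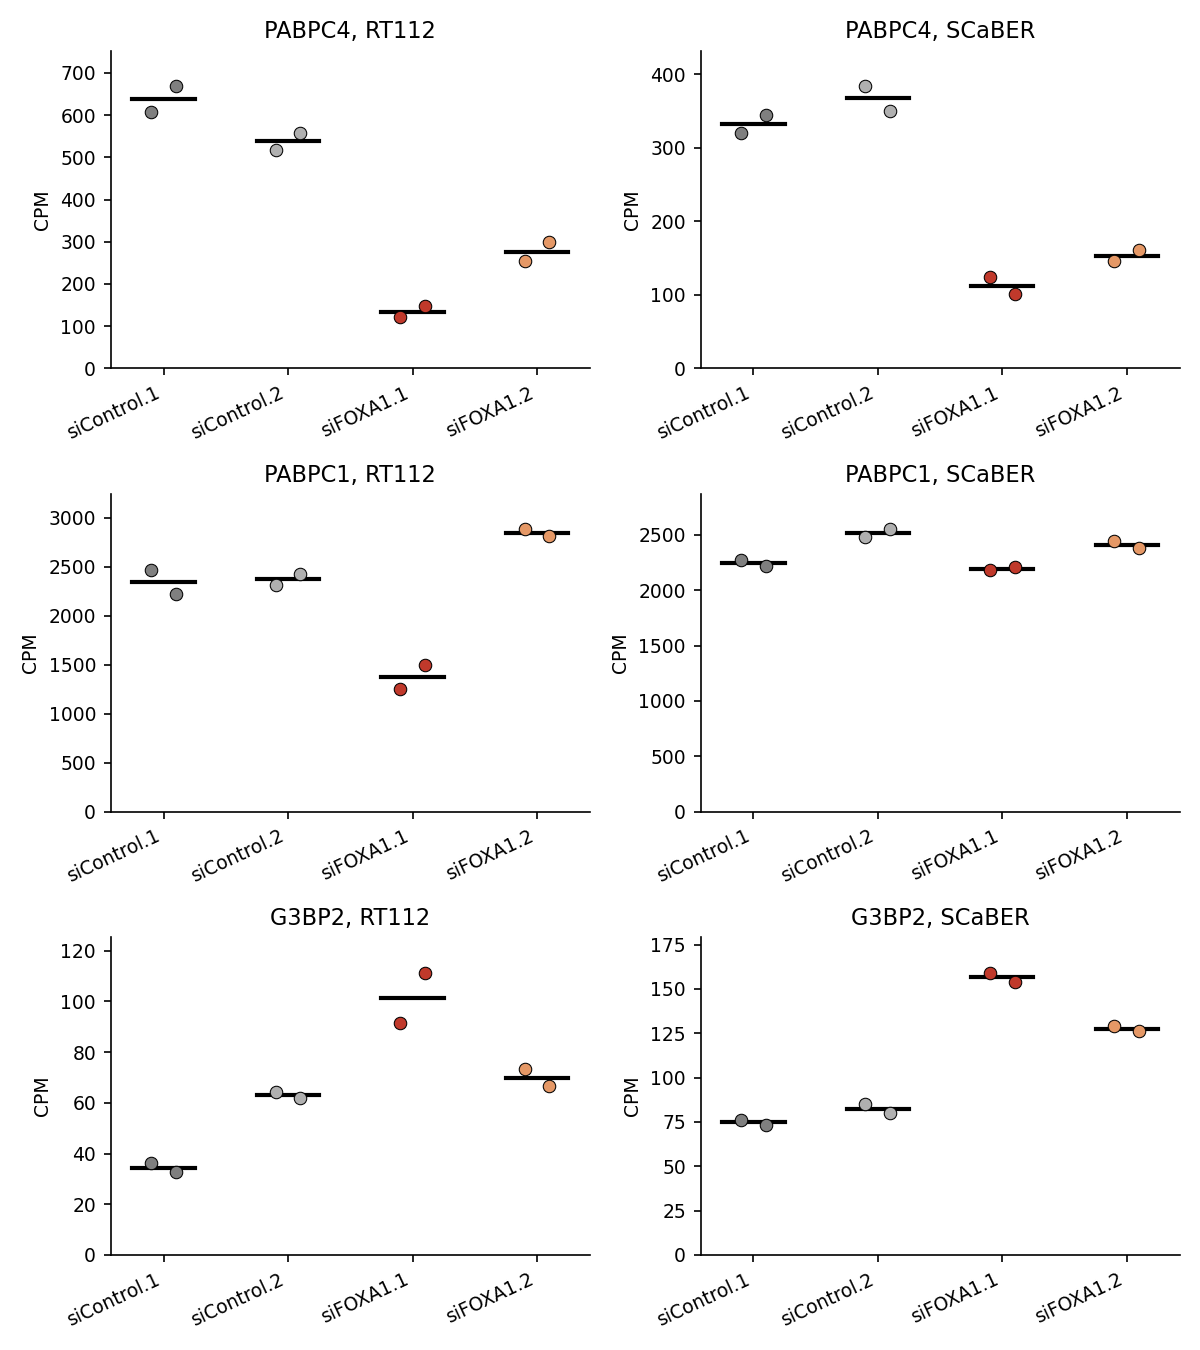
CPM of PABPC4, PABPC1 and G3BP2 in each library by siRNA, with RT112 on the left and SCaBER on the right, points for the 2 libraries and bars for their mean. PABPC4 lies at 122 to 299 CPM under FOXA1 siRNAs and at 518 to 669 CPM under control siRNAs in RT112, whereas PABPC1 lies below its controls under siFOXA1.1 and above them under siFOXA1.2.

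The low members of the family varied more between libraries. PABPC1L in RT112 was at 43.7 and 44.4 CPM under siControl.1, 26.2 and 24 CPM under siControl.2, 11.1 and 24.5 CPM under siFOXA1.1, and 38.8 and 22.9 CPM under siFOXA1.2. The groups overlapped, and the controls were split between themselves. In SCaBER it ranged from 5.99 to 15.5 CPM under control and from 7.95 to 17.6 CPM under FOXA1 siRNAs. PABPN1 ranged from 9.97 to 19.2 CPM under control and from 7.43 to 18.6 CPM under FOXA1 siRNAs in RT112, and from 6.08 to 12.5 and from 4.92 to 9.98 CPM in SCaBER. These groups overlapped throughout, on 26 to 146 counts of PABPN1 per library.

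Of the partners, PAIP1 was at 44.3 and 42.9 CPM under siControl.1 and at 46.6 and 64.3 CPM under siControl.2 in RT112. It was at 18 and 33.4 CPM under siFOXA1.1 and at 31.6 and 41.9 CPM under siFOXA1.2. All FOXA1 siRNA libraries were below all controls in CPM, the closest libraries being at 41.9 and 42.9 CPM, whereas in TPM the groups overlapped. The log2 differences were -0.79 (SE 0.27) and -0.40 (SE 0.27). In SCaBER the PAIP1 libraries overlapped, at 81.5 to 93.3 CPM under control and 70.1 to 96.9 CPM under FOXA1 siRNAs. PAIP2 overlapped in both lines, at 106 to 154 CPM under control and 101 to 122 CPM under FOXA1 siRNAs in RT112 and at 130.0 to 193 and 142 to 227 CPM in SCaBER.

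G3BP2, at chr4:75642786-75724437, moved the opposite way to PABPC4. In SCaBER it was at 76.4 and 73.3 CPM under siControl.1 and at 85.2 and 79.9 CPM under siControl.2. It was at 159 and 154 CPM under siFOXA1.1 and at 129 and 126 CPM under siFOXA1.2. Controls, siFOXA1.2 and siFOXA1.1 formed 3 rising levels without overlap, the reverse of the order of PABPC4. Against the control mean in CPM, siFOXA1.1 and siFOXA1.2 were at 199% and 162%. Their log2 differences in edgeR were 1.03 (SE 0.18) and 0.72 (SE 0.18).

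In RT112 the control siRNAs themselves disagreed on G3BP2, which was at 36.3 and 32.6 CPM under siControl.1 and at 64.1 and 62 CPM under siControl.2. It was at 91.4 and 111 CPM under siFOXA1.1 and at 73.1 and 66.6 CPM under siFOXA1.2. All FOXA1 siRNA libraries were above all controls in CPM, although siFOXA1.2 lay close to siControl.2 and overlapped it in TPM. The log2 difference of siFOXA1.2 was 0.60 (SE 0.17) against both controls, 1.01 against siControl.1 alone and 0.20 against siControl.2 alone. For siFOXA1.1 it was 1.26 (SE 0.17), 1.66 and 0.85.

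G3BP1, the scaffold most often used to mark stress granules, varied less. In RT112 it was at 118, 111, 87.4 and 104 CPM under control, 109.5 and 122 CPM under siFOXA1.1, and 134 and 152 CPM under siFOXA1.2. In SCaBER it was at 121, 142, 145 and 129 CPM under control, 142 and 156 CPM under siFOXA1.1, and 136 and 171 CPM under siFOXA1.2. In RT112 the siFOXA1.2 libraries alone were above all controls (log2 difference 0.47, SE 0.14), and the other groups overlapped with the controls.

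Across the 8 genes, overlap of the FOXA1 siRNA and control libraries was read in CPM. In RT112 the groups did not overlap for PABPC4 and PAIP1, which were lower, and G3BP2, which was higher. In TPM the RT112 groups of PAIP1 overlapped, with siFOXA1.2 replicate 2 at 24.02 and siControl.1 replicate 2 at 23.99. Those of G3BP2 did too, with siFOXA1.2 replicate 2 at 18.02 and siControl.2 replicate 1 at 18.16. In SCaBER the groups did not overlap in CPM for PABPC4 and G3BP2. Of all genes tested, 7.95% in RT112 and 5.28% in SCaBER did not overlap in CPM. Since this contrast chose the set, nothing is read from the counts.

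Ratios within a library do not depend on its total. PABPC4 had 22.4 to 30.1 counts per 100 PABPC1 counts in RT112 controls, 9.68 and 9.80 under siFOXA1.1, and 8.81 and 10.6 under siFOXA1.2. In SCaBER it had 13.7 to 15.5 under control, 5.66 and 4.56 under siFOXA1.1, and 5.98 and 6.75 under siFOXA1.2. The make-up of the cytoplasmic pair was thus lower in PABPC4 in every FOXA1 siRNA library, and in RT112 the FOXA1 siRNAs overlapped in this ratio although PABPC1 and PABPC4 each differed between them. G3BP2 had 51.4 to 63.2 counts per 100 G3BP1 counts in SCaBER controls, 112 and 98.9 under siFOXA1.1, and 95.0 and 73.8 under siFOXA1.2. In RT112 it had 29.3 and 30.6 under siControl.1, 59.7 and 73.4 under siControl.2, 83.4 and 91.5 under siFOXA1.1, and 43.9 and 54.5 under siFOXA1.2. In RT112 the siFOXA1.2 libraries therefore lay between the 2 control siRNAs in this ratio.

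**Figure D3:**
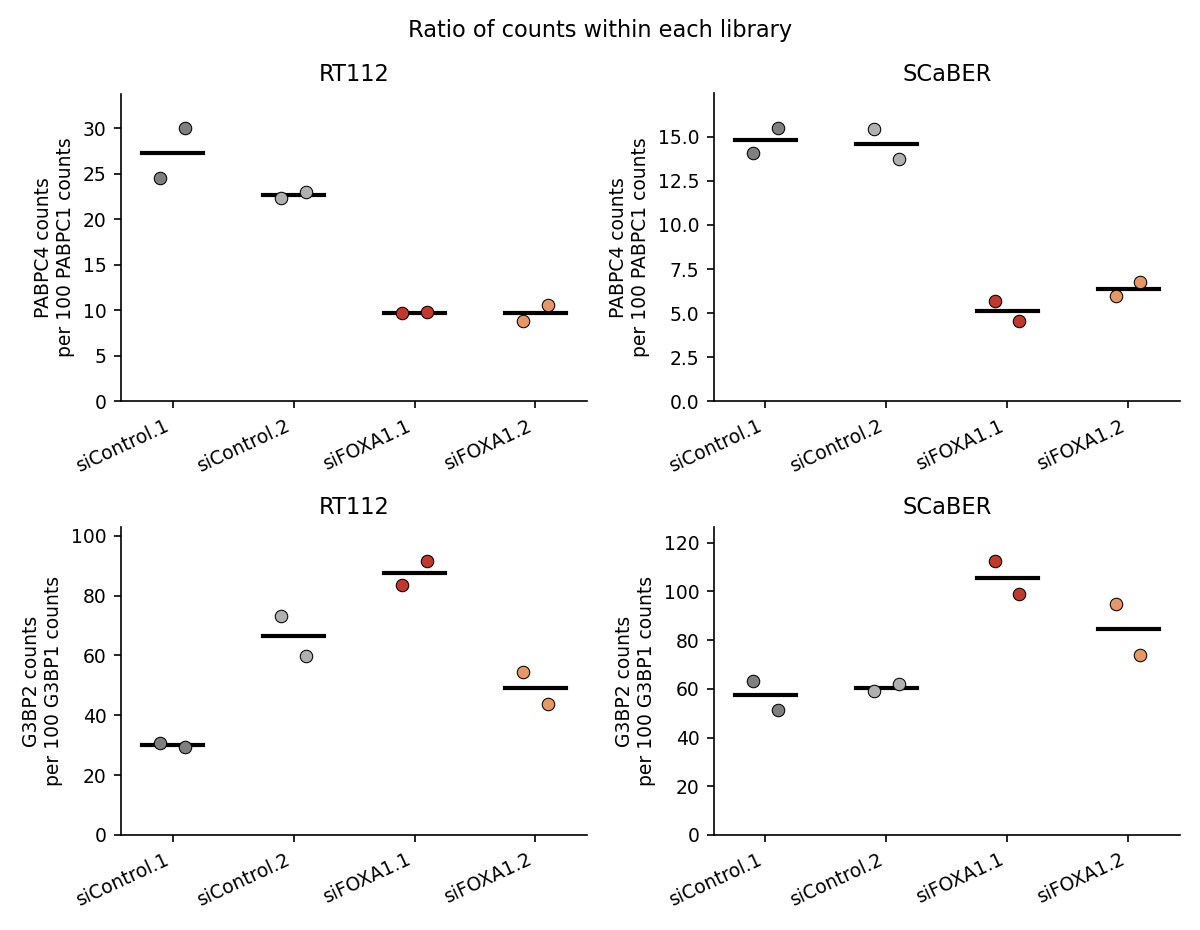
Counts of PABPC4 per 100 counts of PABPC1 (top) and of G3BP2 per 100 counts of G3BP1 (bottom) in each library by siRNA, with bars for the mean of 2 libraries. The upper ratio is 22.4 to 30.1 in RT112 controls and 8.81 to 10.6 under FOXA1 siRNAs, and the lower ratio under siFOXA1.2 in RT112 lies between the control siRNAs.

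The siRNAs of one target were then compared directly, a contrast the choice of genes did not use. In RT112, 3 of the 8 genes differed between siFOXA1.1 and siFOXA1.2, where 28.1% of all 11986 genes tested did. PABPC1 was lower under siFOXA1.1, at a log2 difference of -0.93 (SE 0.10, adjusted p = 2.58e-06 in edgeR). PABPC4 was lower by nearly the same amount, at -0.92 (SE 0.14, adjusted p = 8.04e-05). Both calls held under every alternative run, with adjusted p of at most 0.000179 for PABPC1 and 0.00295 for PABPC4.

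G3BP2 was higher under siFOXA1.1 than under siFOXA1.2 in RT112 by 0.66 (SE 0.20, adjusted p = 0.0202). The difference was 0.54 with library totals in place of TMM (adjusted p = 0.0537), 0.33 with limma on TPM (adjusted p = 0.238) and 0.47 without siFOXA1.1 replicate 2 (adjusted p = 0.165). Without siFOXA1.2 replicate 1 it was 0.72 (adjusted p = 0.0684) and without replicate 2 it was 0.59 (adjusted p = 0.132), so the call was lost in each of these while the sign stayed. Without siFOXA1.1 replicate 2, PABPC1L and PAIP1 were called lower under siFOXA1.1, at -1.38 and -0.95 (adjusted p = 0.0128 and 0.0420 in edgeR), against -0.67 and -0.39 with all libraries (adjusted p = 0.191 and 0.377). In SCaBER none of the 8 genes passed in edgeR, where 4.85% of 11902 genes did. The nearest was PABPC4, at -0.44 (SE 0.20, unadjusted p = 0.0497, adjusted p = 0.273), the 1 gene of the 8 with an unadjusted p under 0.05.

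The control siRNAs serve as the background for these values. In RT112, 1 of the 8 genes differed between siControl.1 and siControl.2, where 2.36% of all genes did. This was G3BP2, lower under siControl.1 at -0.81 (SE 0.21, adjusted p = 0.0452). In a paired fit with the replicate number as a block the difference was again -0.81, at adjusted p = 0.0501. The call was also lost without any one of the siControl or siFOXA1.2 libraries of RT112, at -0.88 to -0.75 with adjusted p of 0.0658 to 0.362. The difference in G3BP2 between the control siRNAs was in size above that between the FOXA1 siRNAs. PABPC4 was 0.31 (SE 0.13) higher under siControl.1 in RT112 (adjusted p = 0.316) and PABPC1L 0.87 (SE 0.36) higher (adjusted p = 0.285), both with an unadjusted p under 0.05. In SCaBER none of the 8 differed in edgeR and none had an unadjusted p under 0.05, where 0.0672% of all genes were called.

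**Figure D4:**
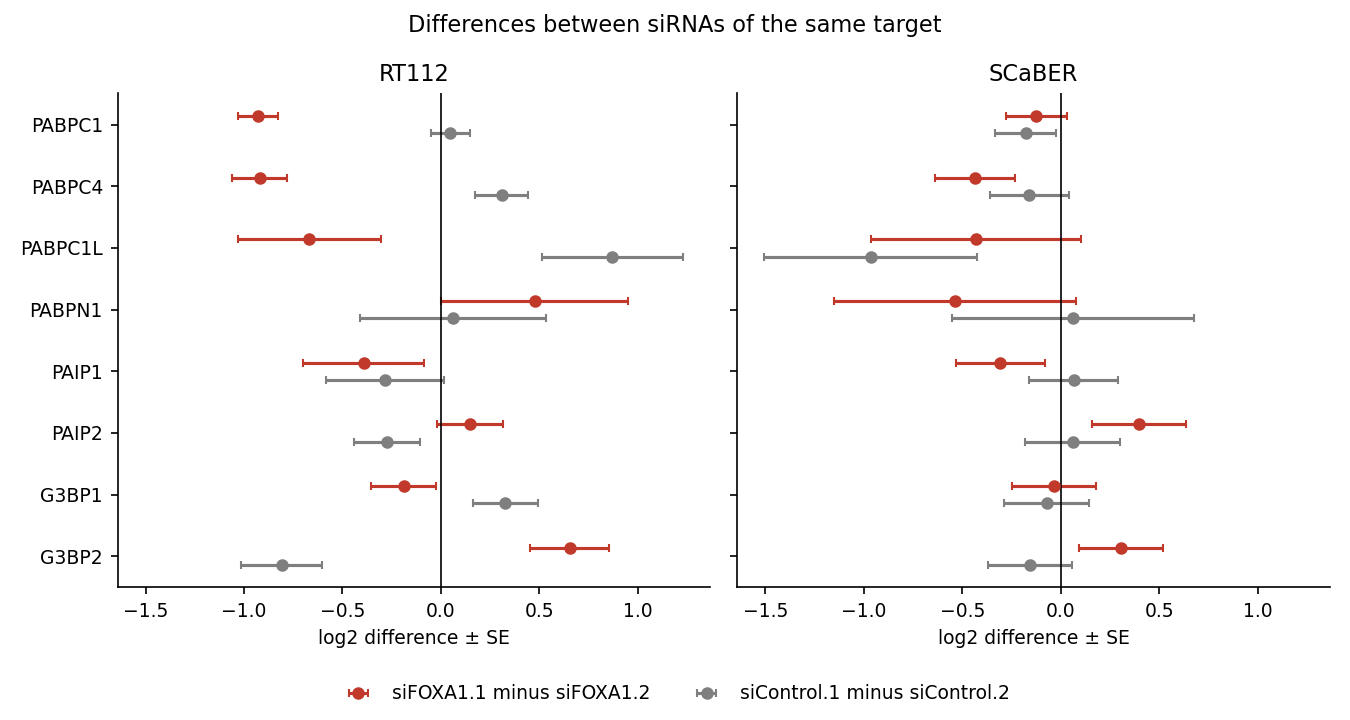
Log2 differences with standard errors between siFOXA1.1 and siFOXA1.2 (red) and between siControl.1 and siControl.2 (grey) for the 8 genes, with RT112 on the left and SCaBER on the right. In RT112, PABPC1 and PABPC4 lie at -0.93 and -0.92 between the FOXA1 siRNAs, and G3BP2 at -0.81 between the control siRNAs.

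The effect of each FOXA1 siRNA was compared between the lines over all 16 libraries. For siFOXA1.1, 1 of the 8 genes differed, where 3.14% of 13701 genes did. PABPC1 was lower under siFOXA1.1 in RT112 relative to SCaBER by -0.57 (SE 0.15, adjusted p = 0.0472). The call was lost with RLE size factors (adjusted p = 0.0505) and without any one of 13 of the 16 libraries, at -0.61 to -0.43. PABPC4 gave -0.40 (SE 0.21, adjusted p = 0.370) and G3BP2 0.22 (SE 0.24, adjusted p = 0.755). For siFOXA1.2 none of the 8 differed in edgeR and none had an unadjusted p under 0.05, where 0.0438% of genes were called. The values were 0.10 (SE 0.21) for PABPC4, -0.11 (SE 0.24) for G3BP2 and 0.25 (SE 0.15) for PABPC1.

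Several of these genes share sequence or position with others. PABPC1 has processed copies elsewhere in the genome, and 13 rows bear the name of a PABPC1 pseudogene. Of these, 11 were at 0 counts in every library, and the highest held 40 counts, 0.262% of the PABPC1 counts of its library. The read-through gene BCL2L2-PABPN1 covers all of PABPN1 and was listed at 0 in all libraries, so reads that fit both genes may be missing from PABPN1. The antisense gene PABPC4-AS1 lies within PABPC4, at chr1:39565070-39573203, and SLC23A1, with 0 to 14 counts, overlaps the end of PAIP2. The kit reads the forward strand, but the deposited configuration leaves strandedness to automatic detection and does not give the strand counted, so antisense reads within the PABPC4 counts could not be assessed.

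The wider machinery was read from 7 lists of 155 genes chosen for function, without the 8 genes themselves. The choice was made with earlier results of these data known. Not all 155 were expressed highly enough to test, and the shares of all genes are over genes tested. Under siFOXA1.1 in RT112, 43 of the list genes passed, where 15.6% of all genes rose and 17.0% fell. Under siFOXA1.2 in RT112 1 passed, where 1.04% rose and 1.00% fell. Under siFOXA1.1 in SCaBER 12 passed, where 4.47% rose and 4.79% fell, and under siFOXA1.2 in SCaBER none passed in edgeR, where 0.0252% rose and 0.0168% fell. The SCaBER count of 12 was 3 and 4 without siControl.2 replicate 1 and replicate 2, 6 without either siFOXA1.2 library and 7 without siControl.1 replicate 2. In this paragraph and the next ones, differences are on the log2 scale and p-values are adjusted over all genes in edgeR.

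Of 8 other members of the poly(A)-binding family and its partners, 2 were expressed highly enough to test in RT112 and 1 in SCaBER, and none passed for either siRNA. PABPC5, PABPC4L and PABPC1L2A were at 0 counts in every library, PABPC3 had at most 7 counts and PAIP2B at most 45. Of 19 cleavage and polyadenylation genes, 1 rose and 1 fell under siFOXA1.1 in RT112, where 15.6% of all genes rose and 17.0% fell. CLP1, a kinase of the cleavage complex, rose by 2.36 (SE 0.62, adjusted p = 0.00711) from a mean of 2.9 to 10.9 CPM, and CPSF6, a subunit of cleavage factor I, fell by 0.99 (SE 0.27, adjusted p = 0.00946). In SCaBER none of the 19 passed.

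Of 23 deadenylation and tail extension genes tested under siFOXA1.1 in RT112, 3 rose and 4 fell, where 15.6% of all genes rose and 17.0% fell. The median was -0.29, against -0.01 over all genes. TENT5A, a poly(A) polymerase of the cytoplasm, rose by 1.14 (SE 0.19, adjusted p = 0.000178) in RT112 and by 0.92 (SE 0.18, adjusted p = 0.00428) in SCaBER, where it was the 1 gene of its list that passed. Under siFOXA1.2 TENT5A was at -0.18 in RT112 and 0.33 in SCaBER. The FOXA1 siRNAs differed in TENT5A in RT112 (adjusted p = 0.000381) but not in SCaBER (adjusted p = 0.135). In RT112 BTG2 fell by 2.21 (SE 0.25, adjusted p = 3.09e-06) and TOB2 fell by 1.48 (SE 0.20, adjusted p = 1.99e-05), and both proteins recruit the deadenylase complex. Under siFOXA1.2 in RT112 BTG2 was instead at 0.39 and TOB2 at -0.70. Each differed between the FOXA1 siRNAs there (adjusted p = 2.11e-06 and 0.0138). CNOT1, the scaffold of the deadenylase complex, was the 1 list gene that passed under siFOXA1.2 in RT112, where it fell by 0.55 (SE 0.13, adjusted p = 0.0343). No list gene passed there without any one of the siControl or siFOXA1.2 libraries, or with siControl.2 alone as the control.

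Of 21 closed-loop initiation and termination genes, 2 rose and 4 fell under siFOXA1.1 in RT112, where 15.6% of all genes rose and 17.0% fell. In SCaBER 3 fell, where 4.79% of all genes did. EIF4G2, a relative of the initiation scaffold that lacks the part bound by poly(A)-binding protein, fell by 0.93 (SE 0.10, adjusted p = 1.78e-06) in RT112 and by 0.55 (adjusted p = 0.0337) in SCaBER. EIF4EBP2, an inhibitor of the cap-binding protein, fell by 0.78 (SE 0.13, adjusted p = 0.000128) in RT112 and fell by 1.09 (SE 0.26, adjusted p = 0.0157) in SCaBER. EIF4EBP1, of the same kind, fell by 3.65 (SE 0.49, adjusted p = 0.000356) in SCaBER, from a mean of 22 to 1.7 CPM. LARP4B and the release factor ETF1 rose in RT112 by 0.96 and 0.82 (adjusted p = 0.000110 and 0.000816). Under siFOXA1.2 in RT112 EIF4G2, EIF4EBP2, LARP4B and ETF1 were at -0.04, -0.04, 0.36 and -0.02. Each differed between the FOXA1 siRNAs (adjusted p = 1.45e-05, 0.000810, 0.0208 and 0.00366). In SCaBER EIF4G2, EIF4EBP2 and EIF4EBP1 were at 0.08, 0.06 and -0.07 under siFOXA1.2. Each differed between the FOXA1 siRNAs there too (adjusted p = 0.0497, 0.0327 and 0.00120).

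Of 32 stress granule genes tested beside G3BP1 and G3BP2, 7 rose and 6 fell under siFOXA1.1 in RT112, and 2 rose in SCaBER. Over all genes 15.6% rose and 17.0% fell in RT112, and 4.47% rose in SCaBER. In RT112 the largest rises were of ATXN2L, at 1.04 (SE 0.27, adjusted p = 0.00576), and NUFIP2, at 0.85 (SE 0.17, adjusted p = 0.000771). Among RNA-binding proteins with the largest falls, HNRNPA1 fell by 1.30 (SE 0.14, adjusted p = 1.17e-06) and TARDBP fell by 1.04 (SE 0.20, adjusted p = 0.000497). In SCaBER YTHDF3, a reader of methylated adenosine, rose by 0.88 (SE 0.23, adjusted p = 0.0280) and PRRC2C rose by 0.51 (SE 0.15, adjusted p = 0.0493). Under siFOXA1.1 the median of the list was 0.14 in RT112 and 0.07 in SCaBER, against -0.01 and 0.01 over all genes. Under siFOXA1.2 in RT112 ATXN2L, NUFIP2, HNRNPA1 and TARDBP were at 0.14, -0.01, 0.11 and -0.06. Each differed between the FOXA1 siRNAs (adjusted p = 0.0433, 0.00366, 2.40e-06 and 0.00270). In SCaBER YTHDF3 and PRRC2C were at 0.60 and 0.43 under siFOXA1.2, with no called difference between the FOXA1 siRNAs (adjusted p = 0.671 and 0.882).

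Stress granules form when eIF2 is phosphorylated. Of 16 genes of that branch, 5 rose and none fell under siFOXA1.1 in RT112, while 2 rose and 1 fell in SCaBER. Over all genes 15.6% rose and 17.0% fell in RT112, and 4.47% rose and 4.79% fell in SCaBER. The medians of the 16 genes were 0.31 and 0.30 under siFOXA1.1 and 0.06 and 0.08 under siFOXA1.2. EIF2AK2, the eIF2 kinase activated by double-stranded RNA, rose by 1.2 (SE 0.13, adjusted p = 2.38e-06) in RT112 and by 1.30 (SE 0.19, adjusted p = 0.000679) in SCaBER under siFOXA1.1. Under siFOXA1.2 EIF2AK2 was at 0.08 in RT112 and -0.02 in SCaBER. It differed between the FOXA1 siRNAs in both lines (adjusted p = 5.56e-05 and 0.00434). EIF2B5, a subunit of the exchange factor for eIF2, rose by 0.80 (SE 0.21, adjusted p = 0.0246) in SCaBER and by 1.18 (adjusted p = 1.91e-05) in RT112. In RT112 EIF2B5 also differed between the control siRNAs, by 0.82 (adjusted p = 0.0320). Under siFOXA1.2 EIF2B5 was at 0.49 in SCaBER and -0.05 in RT112. DDIT3, a transcription factor induced downstream, rose by 1.5 (SE 0.51, adjusted p = 0.0317) in RT112 at about 10.8 CPM, and was at 0.83 under siFOXA1.2. The FOXA1 siRNAs had no called difference in DDIT3 there (adjusted p = 0.455). DDIT3 was also 1.58 higher under siControl.1 than under siControl.2 in RT112, a difference that was not called (adjusted p = 0.278). EIF2AK1, the kinase that responds to haem, fell by 0.57 (SE 0.16, adjusted p = 0.0390) in SCaBER. Under siFOXA1.2 in SCaBER EIF2AK1 was at 0.15, and it differed between the FOXA1 siRNAs (adjusted p = 0.0359).

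Of 30 decapping and decay genes tested in RT112, 7 rose and 3 fell under siFOXA1.1, where 15.6% of all genes rose and 17.0% fell. The decapping factors EDC3 and PATL1 rose by 1.49 (SE 0.24, adjusted p = 0.000111) and 1.11 (SE 0.15, adjusted p = 2.12e-05). Of the exosome genes, DIS3L fell by 3.33 (SE 0.33, adjusted p = 6.75e-07) and EXOSC2 fell by 2.20 (SE 0.33, adjusted p = 5.20e-05). Under siFOXA1.2 in RT112 EDC3, PATL1, DIS3L and EXOSC2 were at 0.55, 0.23, -0.74 and -0.12. Each differed between the FOXA1 siRNAs there (adjusted p = 0.0207, 0.00148, 2.83e-05 and 0.000270). In SCaBER 1 of 29 rose, the exonuclease XRN1, by 0.94 (SE 0.22, adjusted p = 0.0161), and the exosome gene EXOSC1 fell by 1.11 (SE 0.31, adjusted p = 0.0343). No difference between the siRNAs or the lines was tested for the lists as a whole.

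**Figure D5:**
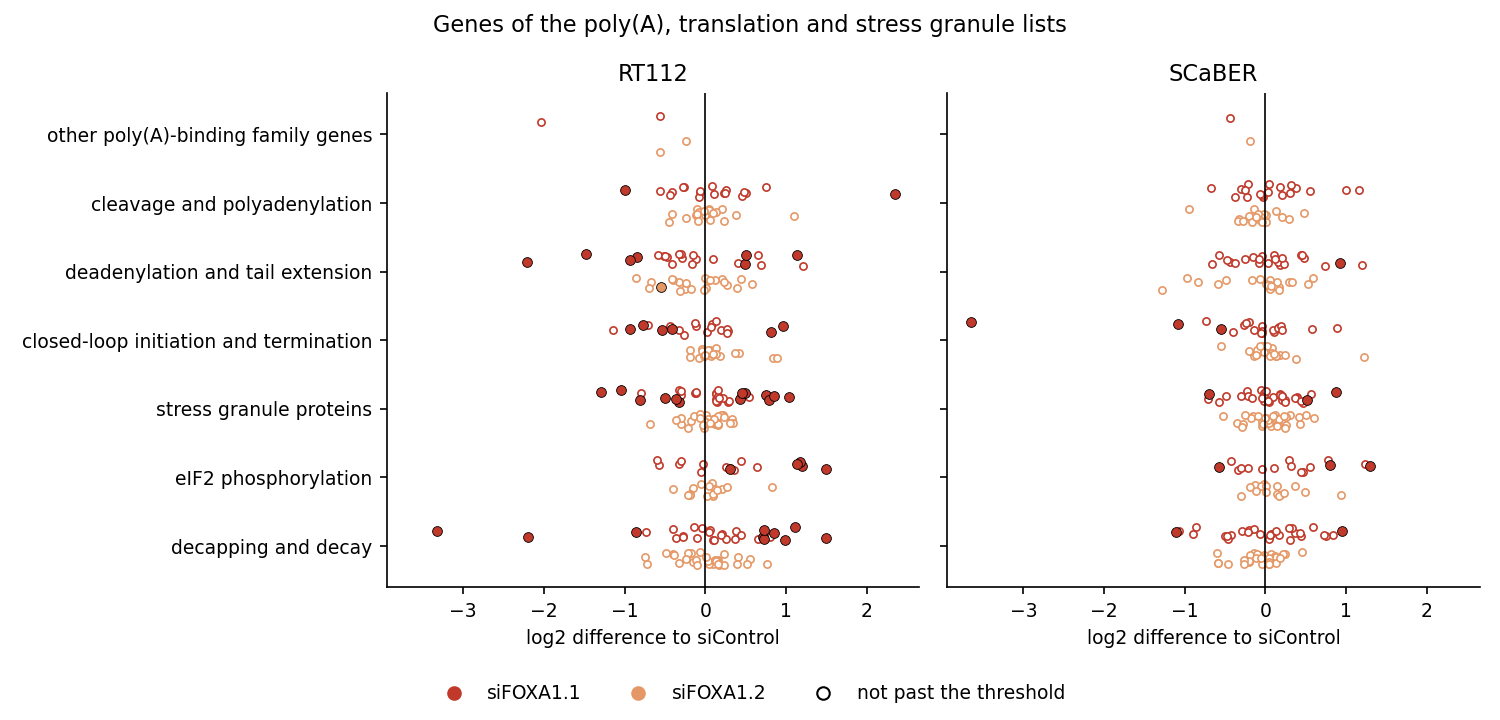
Log2 difference of each tested gene of the 7 lists to both control siRNAs under siFOXA1.1 (red) and siFOXA1.2 (orange), with filled points for adjusted p under 0.05 and open points for the rest. In RT112 43 genes are filled under siFOXA1.1 and 1 under siFOXA1.2, and in SCaBER 12 and none.

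The genes whose level followed PABPC4 and G3BP2 most closely were found from log2 CPM over the 16 libraries after each line's mean was taken off, among 9698 genes. The libraries share siRNAs and controls, so these correlations describe the libraries only. For PABPC4 the closest were CDC42SE2 (Pearson r = 0.97), HMGB1 (0.95), TMEM97 (0.92), H2AFZ (0.91) and SIVA1 (0.91). For G3BP2 they were PDIA6 (0.94), CCDC80 (0.92), PTPN1 (0.91), PPFIBP1 (0.91) and WDR1 (0.91). PABPC4 and G3BP2 stood at r = -0.92 with each other, G3BP2 at rank 9696 of 9698 by likeness to PABPC4, where each had been picked for its direction. PABPC1 stood at r = 0.50 with PABPC4, at rank 1842.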

How the data were processed

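RNA was measured in 16 libraries made with a 3' mRNA kit. Gene counts, and TPM values made from them, were deposited by the authors as 1 table each. Trimming, per the labels and the deposited settings, used TrimGalore 0.6.2 (minimum quality 20, minimum length 10) and counting used STAR 2.6.1a on hg38 with GENCODE 29 (hg19 in the study's methods). Groups came from the labels. Counts were fitted with edgeR 4.0.16 in R 4.3.3 (TMM, filterByExpr by line and target, 1 mean per siRNA, quasi-likelihood F test, Benjamini-Hochberg over all genes, threshold 0.05), each line separately; the lines were compared over the 8 siControl libraries, and the siRNA effects between them over all 16. The scripts were tested on simulated data. The floor of 3 counts was 0.394 to 0.453 CPM in RT112 and 0.434 to 0.662 CPM in SCaBER, for counting error only.

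The 8 members and the 7 lists were chosen with earlier results of these data known. Named list genes were, per line and siRNA, the 2 largest rises and 2 largest falls among those called with a mean of at least 20 counts, and the genes most like PABPC4 and G3BP2 were the 5 with the highest Pearson r. The result of 1 list gene is not reported here.

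Per the labels, the replicate number marks a shared experiment batch, so the numbers pair the libraries. The correlation of the replicate differences between siRNAs was -0.018 to 0.014 in RT112 and 0.019 to 0.198 in SCaBER. Libraries of 1 siRNA differed by more than sampling noise (chi-square per gene 8.35 to 34.0). Alternatives were RLE size factors, library totals, no filter, a stricter filter (CPM above 1 in 4 libraries), DESeq2 1.42.0, limma 3.58.1 on log2(TPM + 1), the replicate block, 1 fit of all libraries, each control siRNA alone, and each library left out.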

Additional observations from a re-analysis of the deposited data

Results flagged for a closer look

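One value was marked for a closer look. The effect of siFOXA1.1 on PABPC1 differed between the lines by -0.57 on the log2 scale (RT112 minus SCaBER, adjusted p = 0.0472 in edgeR). In CPM PABPC1 stood below all control libraries under siFOXA1.1 in both lines, at 58.4% of the control mean in RT112 and 92.2% in SCaBER. In SCaBER the closest libraries were at 2206 and 2219 CPM, and in TPM the groups overlapped. The log2 difference of siFOXA1.1 to control in SCaBER was -0.08 (SE 0.13). The siFOXA1.1 libraries of RT112 were also those with the highest share of mitochondrial counts, 25.7% to 28.2%, and the part of that share in the difference was not tested. In 36 sets of 4 libraries (the 8 genes and FOXA1 by line and target), no library stood apart from the other 3.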

How the results depend on the processing

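Most values kept their direction and their side of the threshold. Of 1008 comparisons of a tested difference with an alternative, 964 were unaltered in this sense, 30 lost the call and 5 gained it, and 8 values that were never called changed sign by more than the spread between replicates. Most of these comparisons were of differences that were not called at the outset. All 30 lost calls were of G3BP2 or PABPC1. For G3BP2 they lay between the FOXA1 siRNAs or the control siRNAs of RT112, or between the lines. For PABPC1 they lay in the line difference of siFOXA1.1. The 1 reversal was PABPC1 between the lines, at -0.40 with limma on TPM. The median of all genes moved with the scaling, by -0.13 with library totals and by -0.27 with limma on TPM for siFOXA1.1 against control in RT112. The count of members called between the control siRNAs in RT112 was 0 with limma on TPM, with the replicate block and with 1 fit of all libraries, and 0 to 1 with a library left out. Between the lines it was 7 with limma on TPM. For the line difference of siFOXA1.1 it was 0 with RLE size factors and 0 to 1 with a library left out. The replicate block, with libraries paired by batch number, changed no other call on the members.

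For PABPC4 in RT112, limma on TPM gave -2.28 under siFOXA1.1 and -1.68 for both siRNAs pooled, and with a library left out the values were -2.17 to -1.84 and -1.68 to -1.29. In SCaBER they were -1.80 to -1.42 under siFOXA1.1. For G3BP2 under siFOXA1.1 in RT112 the values were 1.12 with library totals, 0.87 with limma on TPM, 1.66 and 0.85 with siControl.1 or siControl.2 alone, and 1.07 to 1.41 with a library left out. Under siFOXA1.2 they were 1.01 and 0.20 with siControl.1 or siControl.2 alone. Pooled, they were 0.70 with limma on TPM and 0.72 to 1.06 with a library left out. In SCaBER, siControl.1 or siControl.2 alone gave 1.1 and 0.95 under siFOXA1.1 and 0.80 and 0.64 under siFOXA1.2, and leaving out a library gave 0.97 to 1.09 under siFOXA1.1 and 0.81 to 0.93 pooled.

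The count of pathway genes called under siFOXA1.2 in RT112 was 2 without a filter, 3 with DESeq2, 0 with limma on TPM, 0 with 1 fit of all libraries, 2 and 0 with siControl.1 or siControl.2 alone, and 0 to 2 with a library left out. Under siFOXA1.1 in SCaBER it was 7 with limma on TPM, 7 and 4 with siControl.1 or siControl.2 alone, and 3 to 13 with a library left out. The causes were not tested. A fit without 1 library of a siRNA assumes that the lone library varies like the others. With 2 libraries per siRNA, at 26 to 146 counts of PABPN1 and 36 to 332 of PABPC1L, only large differences of these genes could be detected.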
